A study of Mus musculus with 12 samples.

Results

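The genes described here are 37 genes of the G1/S transition and of DNA replication, chosen by symbol, and all 37 were found among the 18211 genes measured by RNA sequencing in MC38 tumors. MC38 is a mouse colorectal adenocarcinoma cell line. The cells were injected under the skin of female C57BL/6 mice bought at 5 weeks of age, and the mice were divided at random on day 7. The CK group received the vehicle of DMSO and corn oil, the PB-020 group received PB-020, a small molecule that inhibits the IGF-1 receptor, by mouth at 50 mg/kg per day, the anti-PD-1 group received the antibody RMP1-14 into the peritoneum on days 9, 12, 15 and 18, while PB-020/anti-PD-1 mice, here called the combination group, received both agents. Each group had 3 tumors, 12 in all, and no source used here states whether tumors of different groups shared a cage or an extraction, so the spread is that between the tumors sequenced.

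Cells copy their DNA once per division. In G1 the licensing factors Cdc6 and Cdt1 load the Mcm2 to Mcm7 helicase onto replication origins, and at the G1/S transition cyclin E kinase and the E2F transcription factors switch on the genes needed for S phase. Mcm10, Cdc45 and the GINS complex then turn the loaded helicase on, polymerase alpha with primase starts each new strand, the clamp PCNA holds the later polymerases in place, and ribonucleotide reductase and thymidylate synthase supply the building blocks. In a tumor, transcripts of this machinery come from dividing malignant cells and from dividing host cells alike, T cells included, and these sources map to the same genome and cannot be told apart in bulk RNA. A difference in level can likewise be a difference in the number of cycling cells or in the RNA of each cell, which bulk data do not separate.

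Promoter sequences are shown for 5 members that stood for the patterns found, since E2F factors act at sites near the start of many of these genes. RefSeq windows of GRCm38.p6, which hold 250 bases before a start and 50 after it, were given for 32 of the 37 members, and Ccne2, Mcm4, Gins1, Gins2 and Pole are named only. For Mcm6, Mcm5 and Rrm2 the stretch has 150 bases that lie before the RefSeq locus and outside GENCODE exons. The Pola1 and Cdc6 windows lie mostly or wholly within the RefSeq locus, which starts farther upstream, so only the E2F letters with 10 bases on each side are shown for them. All read 5′ to 3′ toward the gene. Capitals mark matches on either strand to the E2F letters TTTCCCGC, TTTGGCGC, TTTCGCGC or TTTGCCGC, and to CCAAT, the letters bound by NF-Y. In Mcm6 and Mcm5 a TTTGGCGC overlaps a TTTCGCGC on the other strand, so the capitals there run together.
Pola1 (chrX:93632276-93632303 on the minus strand), Cdc6 (chr11:98908003-98908030 on the plus strand), Mcm6 (chr1:128359706-128359855 on the minus strand), Mcm5 (chr8:75109318-75109467 on the plus strand) and Rrm2 (chr12:24708091-24708240 on the plus strand) read as follows.
Pola1: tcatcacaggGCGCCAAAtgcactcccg
Cdc6: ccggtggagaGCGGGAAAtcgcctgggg
Mcm6: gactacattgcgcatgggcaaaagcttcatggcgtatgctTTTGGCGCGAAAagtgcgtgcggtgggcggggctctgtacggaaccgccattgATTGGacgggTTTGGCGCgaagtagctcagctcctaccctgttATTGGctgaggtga
Mcm5: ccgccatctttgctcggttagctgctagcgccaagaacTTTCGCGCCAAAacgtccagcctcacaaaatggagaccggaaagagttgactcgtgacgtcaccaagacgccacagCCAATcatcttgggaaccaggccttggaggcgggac
Rrm2: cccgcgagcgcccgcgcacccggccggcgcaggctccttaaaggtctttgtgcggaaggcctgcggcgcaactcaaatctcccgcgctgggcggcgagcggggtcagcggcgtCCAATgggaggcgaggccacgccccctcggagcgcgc

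E2F letters stood in at least 1 window of 13 of the 32 members (40.6%), against 459 of 10534 other genes tested (4.36%) and 2.26% of all 32851 windows. The 13 were Mcm3, Mcm5, Mcm6, Mcm7, Cdc6, Cdt1, Pola1, Rfc3, Lig1, E2f2, E2f7, Uhrf1 and Dnmt1. CCAAT was in 21 members (65.6%), against 42.9% of the other genes, and TTTGAA, the letters of the cell cycle homology region of many late cell cycle genes, was in 6 (18.8%), against 14.6%. Among the 5 shown, Pola1 and Rrm2 were raised in both groups that received the antibody, Mcm6 in the combination group, and Cdc6 and Mcm5 in neither single comparison with CK, although Pola1, Cdc6, Mcm6 and Mcm5 all carry E2F letters. The median log2 change in the combination group was 0.21 for the 13 members with E2F letters and 0.28 for the 19 without, while in the anti-PD-1 group it was 0.27 and 0.26.

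The libraries were of like depth, with 16545394 to 17217035 expected counts in each, and every member passed the filter on low counts, which kept 13563 genes. The lowest count of any member in any library was 146, for Ccne1. Of 12 markers of colorectal epithelium, 2 passed the filter, Cdh1 and Muc2, and the summed TPM of all 12 was at most 8.15 in any library, with Krt18 at 0 in all 3 CK tumors. Epithelial markers were thus at or near 0 in tumors of this labelled origin. Libraries that stood apart were anti-PD-1 tumor 1, whose skeletal muscle markers lay 4.38 above CK on the log2 scale, and CK tumor 3, whose neutrophil markers lay 3.06 above the CK mean. Counts of members raised were also taken without each of these tumors in turn, and the larger changes in them are given below. For the other gene lists and the markers, values are given with all 12 tumors only. Calls of single members are given with all 12 tumors, in some cases with the number of alternative settings that lost the call.

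In the CK tumors the members covered a wide range of levels. Pcna, the sliding clamp, was the most abundant per length, at 263.1 ± 17.1 FPKM (SD, n = 3), followed by Mcm6 at 115.4 ± 4.0 and the salvage kinase Tk1 at 87.5 ± 8.1. The lowest were Ccne1, cyclin E1, at 6.77 ± 0.79, E2f2 at 6.97 ± 0.78 and E2f7 at 7.98 ± 0.60 FPKM, and the first 2 of these did not differ beyond their spread. FPKM is the authors' value per transcript length and library total, so these levels can be set side by side. Together the members took 0.357% to 0.396% of the counts in CK, 0.359% to 0.415% in PB-020, 0.428% to 0.451% in anti-PD-1 and 0.427% to 0.453% in the combination group. The tumors that received the antibody were all above those that did not.

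Against CK, the combination raised 16 of the 37 members and lowered 0, with edgeR's quasi-likelihood test and a Benjamini-Hochberg adjusted p under 0.05 over all genes tested. Of all genes tested, 8.35% were raised in that comparison. The members raised were Pola1, Ccne2, Rfc4, Gins1, Rrm2, Prim1, Rrm1, Mcm10, Cdc45, Chaf1a, Tyms, Pcna, Cdt1, Dnmt1, Mcm6 and Rfc5. The median log2 change of the 37 was 0.24, against −0.00 over all genes, and 36 had a positive value. In 21 members all 3 combination tumors lay above all 3 CK tumors by TMM-scaled counts, as did 19.6% of all genes. The changes were small in size: only Pola1 and Ccne2 passed a fold of 1.5 with an unadjusted p under 0.05, a rule that 4.95% of all genes passed as raised.

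The anti-PD-1 antibody alone raised 6 members and lowered 0, against 4.18% of all genes raised. They were Cdt1, Mcm10, Cdc45, Pola1, Rrm2 and Chaf1a, and each of the 6 was also among the 16 raised by the combination, a comparison that shares the CK tumors. All 37 members had a positive log2 change, with a median of 0.26 and values from 0.02 for Tk1 to 0.82 for Pola1. All 3 anti-PD-1 tumors lay above all 3 CK tumors in 21 members, and in 13.9% of all genes. At an unadjusted p under 0.05 22 members were higher in the anti-PD-1 group (13.6% of all genes) and 23 in the combination group (16.5% of all genes). The larger number of calls in the combination group is not a test of a difference between these groups, and that test is given further on.

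These counts rested on single tumors. Without CK tumor 2, the CK tumor with the lowest member levels, the combination raised 3 members and anti-PD-1 raised 1. Without CK tumor 3, with its neutrophil markers, the counts were 9 and 3. Leaving out combination tumor 1 gave 5 for the combination, and leaving out anti-PD-1 tumor 2 or 3 gave 10 or 3 for anti-PD-1. Without anti-PD-1 tumor 1, with its muscle markers, 9 were raised by anti-PD-1. No called member changed sign in any of these fits.

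**Figure D1:**
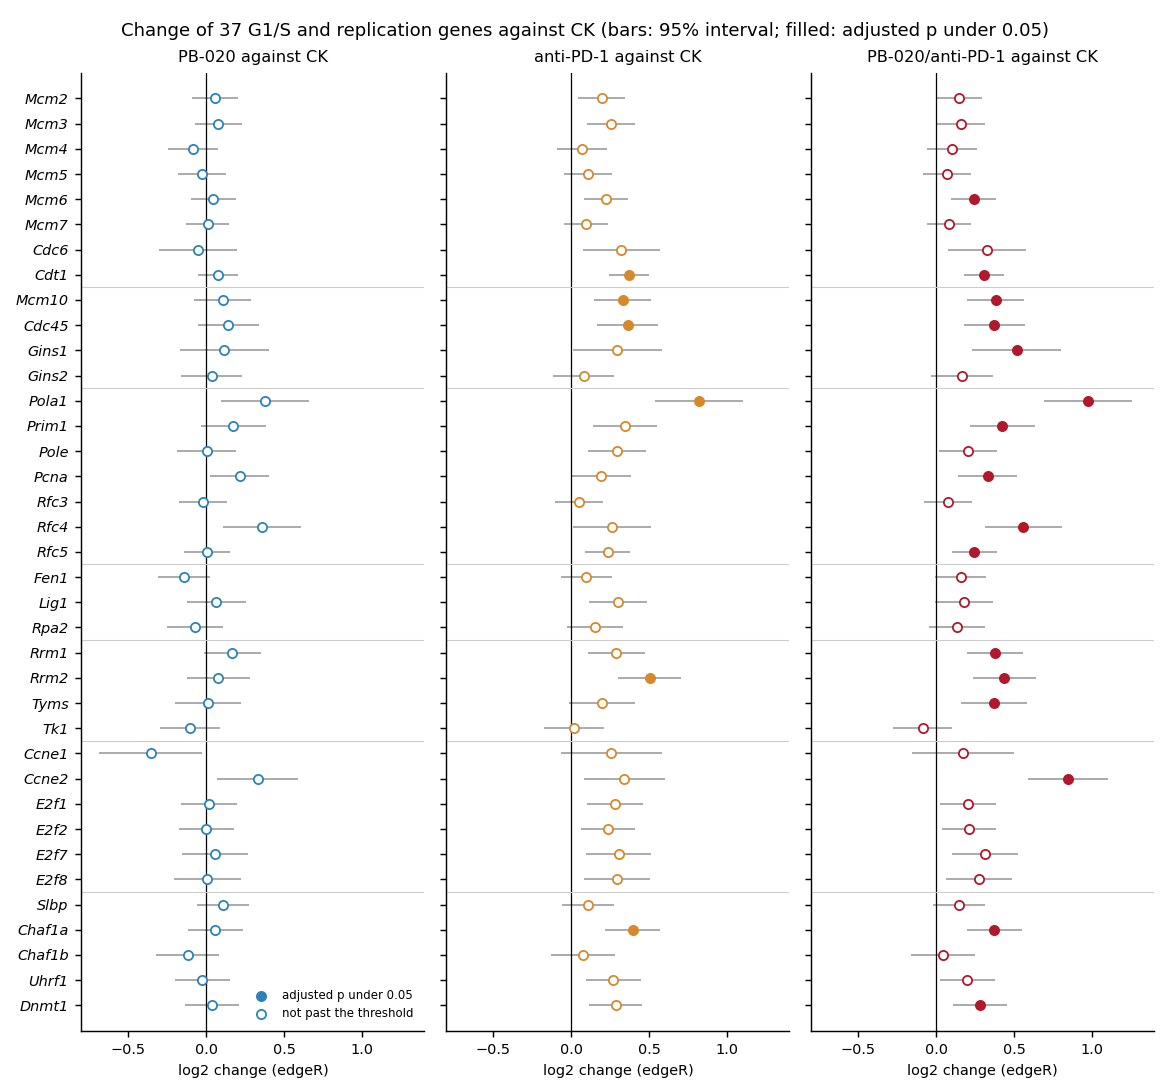
Log2 change of each of the 37 members against CK in each treated group, from the edgeR fit to 12 tumors, with nominal 95% intervals (normal approximation) and grouped by role (grey lines). Filled points are the 0, 6 and 16 members with an adjusted p under 0.05, and Pola1 and Ccne2 stand farthest to the right in the combination group.

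Since 2 groups received the antibody, their 6 tumors were also compared with the 6 without it, as the average of the antibody's effect with and without PB-020. In this comparison 25 members were raised and 0 lowered, against 11.8% of all genes raised. All 37 log2 changes were positive, with a median of 0.24. In 9 members the 6 tumors with the antibody all lay above the 6 without it by TMM-scaled counts, as in 4.1% of all genes. These were Mcm6, Cdc6, Cdt1, Mcm10, Cdc45, Pola1, Rfc5, Rrm2 and Dnmt1. Without CK tumor 2 the number raised was 16. The 10 members raised in none of the comparisons were Mcm2, Mcm4, Mcm5, Mcm7, Gins2, Rfc3, Rpa2, Tk1, Slbp and Chaf1b.

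**Figure D2:**
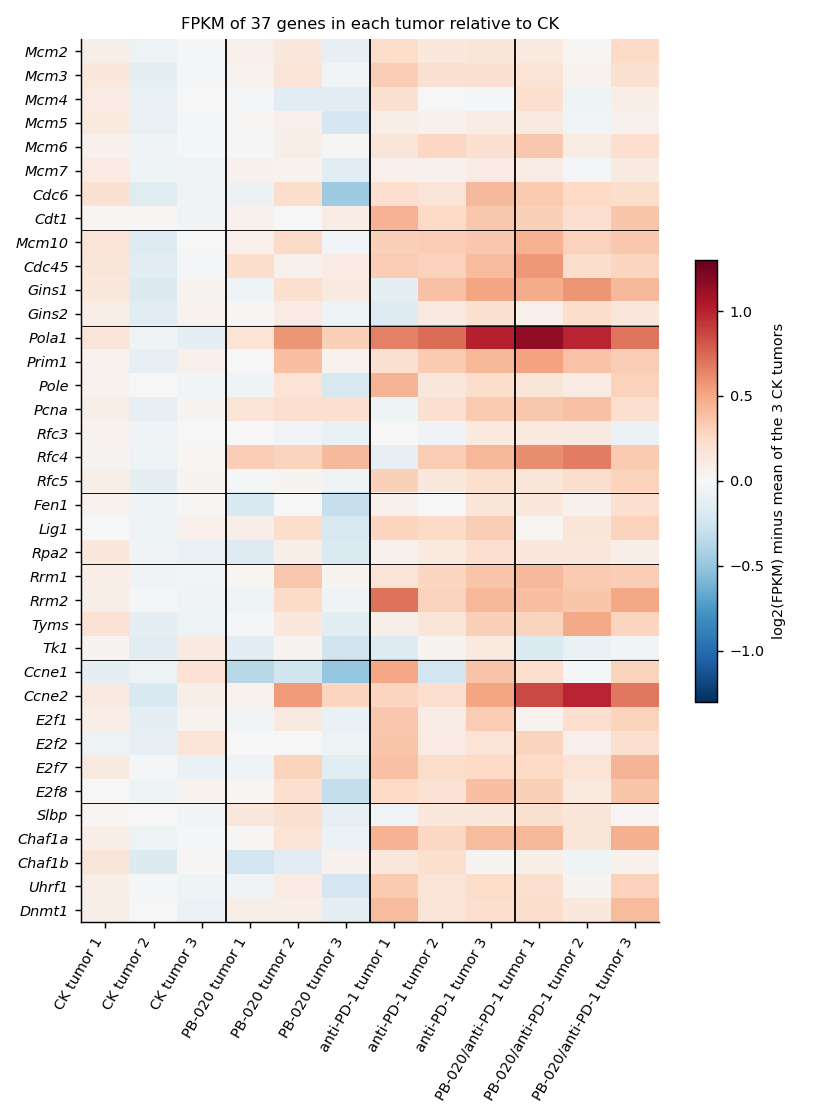
FPKM of each member in each of the 12 tumors, as log2(FPKM) minus the mean of the 3 CK tumors (color scale). The columns of the 6 tumors with the antibody are mostly red, and Pola1 and Ccne2 are the darkest rows. Gins1, Gins2, Rfc4, Pcna and Tk1 are among the members that are pale blue in anti-PD-1 tumor 1.

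Of the factors that load the helicase, Cdt1 rose most clearly. Cdt1 (gene 67177, chromosome 8, 122568015 to 122573130 of GRCm38.p6), which brings Mcm2 to Mcm7 to origins, had 32.1, 31.9 and 30.5 FPKM in CK, 32.7, 31.6 and 33.7 in PB-020, 43.1, 37.7 and 40.0 in anti-PD-1 and 39.0, 36.3 and 40.4 in the combination group. The 6 tumors with the antibody were all above the 6 without it. Its log2 change was 0.37 with anti-PD-1 (SE 0.07, adjusted p = 0.0088) and 0.31 with the combination (SE 0.07, adjusted p = 0.0082). Cdc6, its partner in loading, had log2 changes of 0.32 and 0.33 with adjusted p values of 0.12 and 0.088, and of 0.35 (adjusted p = 0.014) for the antibody over 6 against 6 tumors.

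The helicase subunits had smaller log2 changes than Cdt1 and Cdc6. Among Mcm2 to Mcm7, the combination raised Mcm6 alone, and anti-PD-1 raised 0 (3 at an unadjusted p under 0.05). Their median log2 change was 0.15 with anti-PD-1 and 0.12 with the combination. Mcm6 (gene 17219, chromosome 1, 128331575 to 128359705) had 119.8, 111.9 and 114.6 FPKM in CK, 114.2, 121.9 and 116.7 in PB-020, 129.0, 138.9 and 132.8 in anti-PD-1 and 147.1, 123.7 and 134.1 in the combination group, so that the tumors with and without the antibody did not overlap. With the combination it changed by 0.24 (SE 0.07, adjusted p = 0.036), a call lost in 11 of 21 alternative settings. Mcm5 was among the smallest, with log2 changes of 0.11 and 0.07 (adjusted p = 0.40 and 0.56). Over 6 against 6 tumors, Mcm3 was raised by 0.17 (adjusted p = 0.039) along with Mcm6.

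Of the 4 genes of helicase activation, anti-PD-1 raised 2, Mcm10 and Cdc45, and the combination raised those and Gins1. Mcm10, needed to open the origin, had 13.6, 10.7 and 12.1 FPKM in CK, 12.7, 14.3 and 11.8 in PB-020, 14.92, 15.03 and 15.36 in anti-PD-1 and 16.5, 14.9 and 15.4 in the combination group. Mcm10 rose by 0.33 on the log2 scale with anti-PD-1 (SE 0.09, adjusted p = 0.045) and by 0.38 with the combination (SE 0.09, adjusted p = 0.015), and the call for anti-PD-1 was lost in 15 of 21 alternative settings. Cdc45, which joins the helicase with GINS, had 30.3, 24.6 and 27.0 FPKM in CK, 31.8, 28.3 and 29.2 in PB-020, 34.1, 33.4 and 36.2 in anti-PD-1 and 40.1, 31.8 and 33.0 in the combination group. Both antibody groups lay above CK, by 0.36 and 0.37 on the log2 scale (SE 0.10 each, adjusted p = 0.041 and 0.022), and the call for anti-PD-1 was lost in 10 of 21 alternative settings. The GINS subunit Gins1 had 17.6, 14.2 and 16.5 FPKM in CK, 15.4, 18.5 and 17.4 in PB-020, 14.8, 20.8 and 23.0 in anti-PD-1 and 22.39, 23.96 and 21.47 in the combination group. It was raised by the combination (log2 change 0.52, SE 0.14, adjusted p = 0.027), while anti-PD-1 tumor 1 lay among the CK tumors. Gins2, another subunit, had 0.08 and 0.16, with adjusted p values of 0.65 and 0.27, and 70.7% of its annotated exon bases overlap those of Gse1 on the other strand.

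The polymerases, clamp and loader held the member that changed most. Pola1 (gene 18968, chromosome X, 93304766 to 93632387), the catalytic subunit of polymerase alpha, had 17.4, 14.9 and 14.3 FPKM in CK, 17.5, 23.0 and 19.2 in PB-020, 24.5, 25.6 and 31.2 in anti-PD-1 and 34.5, 30.7 and 25.2 in the combination group. CK, PB-020 and the antibody groups did not overlap, and anti-PD-1 overlapped with the combination. The log2 change was 0.38 with PB-020 (SE 0.14, unadjusted p = 0.024, adjusted p = 0.87), 0.82 with anti-PD-1 (SE 0.14, adjusted p = 0.011) and 0.98 with the combination (SE 0.14, adjusted p = 0.0029). The last is a 1.97-fold difference, and its log2 value stayed between 0.87 and 1.09 and past the threshold in all 21 alternative settings. Prim1, the primase subunit that works with polymerase alpha, had 35.2, 31.8 and 35.8 FPKM in CK, 34.4, 44.8 and 35.3 in PB-020, 39.2, 43.3 and 46.3 in anti-PD-1 and 49.3, 44.4 and 42.8 in the combination group. It was raised by the combination (0.43, SE 0.11, adjusted p = 0.016), and PB-020 tumor 2 lay among the antibody tumors. Pola1 per unit of Prim1, as a ratio of FPKM, was 0.399 to 0.495 in CK and 0.509 to 0.542 in PB-020. It was 0.592 to 0.673 in anti-PD-1 and 0.589 to 0.699 in the combination group. This ratio was not tested, and the pair was chosen after its values were seen.

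Pcna and the loader subunit Rfc4 were higher than in CK in the PB-020 tumors as well. Pcna (gene 18538, chromosome 2, 132249286 to 132253180) had 276.9, 243.9 and 268.3 FPKM in CK, 294.9, 305.7 and 304.1 in PB-020, 252.0, 303.0 and 333.4 in anti-PD-1 and 334.9, 341.6 and 303.8 in the combination group. Rfc4 (gene 106344, chromosome 16, 23113948 to 23127730), a subunit of the clamp loader, had 25.2, 23.6 and 25.1 FPKM in CK, 30.8, 30.0 and 32.9 in PB-020, 22.9, 31.0 and 33.3 in anti-PD-1 and 37.4, 39.1 and 31.2 in the combination group. In both genes the PB-020 and combination tumors lay above all CK tumors, and anti-PD-1 tumor 1 lay within or below CK. The log2 changes in the combination group were 0.33 for Pcna (SE 0.10, adjusted p = 0.032) and 0.56 for Rfc4 (SE 0.13, adjusted p = 0.011), and with PB-020 they were 0.22 and 0.36 (unadjusted p = 0.043 and 0.013, adjusted p = 0.87 each). Rfc3 had 0.08 in the combination group (adjusted p = 0.52), while Rfc5 was raised by 0.24 (SE 0.07, adjusted p = 0.036), a call lost in 9 of 21 alternative settings. Pole, the catalytic subunit of polymerase epsilon, was raised over 6 against 6 tumors by 0.25 (adjusted p = 0.018). The ratio of Rfc4 to Rfc3 was 0.619 to 0.643 in CK, 0.781 to 0.895 in PB-020, 0.584 to 0.813 in anti-PD-1 and 0.836 to 0.921 in the combination group. Of the annotated exon bases of Rfc4, 13.4% overlap those of Eif4a2 on the other strand, of Rfc5 15.4% overlap those of Wsb2, and reads of such pairs can be mixed where strand was not used in counting.

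The members of the lagging strand role, Fen1, Lig1 and Rpa2, did not pass the test in any comparison with CK. Fen1, the flap endonuclease, had 25.3, 23.6 and 24.8 FPKM in CK, 21.4, 24.7 and 19.9 in PB-020, 25.6, 24.6 and 27.4 in anti-PD-1 and 27.0, 25.5 and 28.4 in the combination group. The log2 change of Fen1 was 0.16 with the combination (SE 0.08, adjusted p = 0.20), and 78.8% of its annotated exon bases overlap those of Gm10143 on the other strand. Fen1 and Lig1, the ligase that joins Okazaki fragments, were raised over 6 against 6 tumors by 0.20 and 0.21 (adjusted p = 0.028 and 0.039). Rpa2, which coats single-stranded DNA, had 0.18 there (adjusted p = 0.056).

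For nucleotide supply, the combination raised Rrm1, Rrm2 and Tyms, and anti-PD-1 raised Rrm2 alone. No call was made for Tk1, the salvage kinase. Rrm2 (gene 20135, chromosome 12, 24708254 to 24714146), the regulated subunit of ribonucleotide reductase, had 48.2, 45.1 and 44.3 FPKM in CK, 44.2, 54.6 and 44.3 in PB-020, 74.8, 56.0 and 61.8 in anti-PD-1 and 60.1, 58.9 and 64.9 in the combination group. All 6 tumors with the antibody were above the others, and anti-PD-1 tumor 1 was the highest. The log2 change was 0.50 with anti-PD-1 (SE 0.10, adjusted p = 0.014) and 0.44 with the combination (SE 0.10, adjusted p = 0.013). Rrm1, the large subunit, had 83.2, 75.7 and 76.6 FPKM in CK, 79.8, 100.1 and 80.6 in PB-020, 88.0, 95.3 and 101.0 in anti-PD-1 and 104.9, 99.4 and 97.9 in the combination group, and was raised by the combination (0.38, SE 0.09, adjusted p = 0.015). Tyms, thymidylate synthase, had 15.3, 12.4 and 12.8 FPKM in CK, 13.3, 14.8 and 12.1 in PB-020, 14.13, 15.01 and 16.68 in anti-PD-1 and 16.5, 18.9 and 16.3 in the combination group, where its log2 change was 0.37 (SE 0.11, adjusted p = 0.031). Tk1 was the only member with a negative log2 change in the combination group, and its difference from the other members was not tested. It had 89.3, 78.6 and 94.5 FPKM in CK, 79.4, 89.5 and 72.8 in PB-020, 77.6, 89.43 and 94.97 in anti-PD-1 and 77.1, 82.0 and 85.1 in the combination group, all groups overlapping. The combination gave a log2 change of −0.09, with a 95% interval from −0.28 to 0.10 (adjusted p = 0.56).

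Of the genes of G1/S control, both cyclins E were measured, and against CK the combination raised Ccne2 and no call was made for Ccne1. The difference between the 2 genes was not tested. Ccne2 (gene 12448, chromosome 4, 11190433 to 11204779), the E2 form of the cyclin, had 9.58, 7.71 and 9.29 FPKM in CK, 9.13, 13.0 and 10.7 in PB-020, 10.7, 10.2 and 12.6 in anti-PD-1 and 16.0, 17.5 and 14.2 in the combination group. Each combination tumor was above all 9 other tumors. Of the annotated exon bases of Ccne2, 10.5% overlap those of Ints8 on the other strand. Ccne1, the E1 form, had 6.2, 6.45 and 7.67 FPKM in CK, 5.24, 5.63 and 4.77 in PB-020, 9.55, 5.68 and 8.73 in anti-PD-1 and 7.82, 6.61 and 8.22 in the combination group, with the PB-020 tumors below all CK tumors. The log2 change with the combination was 0.85 for Ccne2 (SE 0.13, adjusted p = 0.0024), past the threshold in all 21 alternative settings, and 0.17 for Ccne1 (SE 0.17, adjusted p = 0.49). With PB-020 alone it was 0.33 for Ccne2 (SE 0.13, unadjusted p = 0.025) and −0.36 for Ccne1 (SE 0.17, unadjusted p = 0.054), each with an adjusted p of 0.87. The ratio of Ccne2 to Ccne1 in FPKM was 1.195 to 1.545 in CK, 1.74 to 2.31 in PB-020, 1.12 to 1.80 in anti-PD-1 and 1.72 to 2.65 in the combination group. The genes whose ratios are given, these and those of the polymerase and loader, were chosen after their values were seen.

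The E2F genes had log2 changes of like size. E2f1 and E2f2, activators of S phase genes, and E2f7 and E2f8, which repress them, had log2 changes of 0.24 to 0.30 with anti-PD-1 and 0.20 to 0.31 with the combination, and none passed the threshold there (edgeR, smallest adjusted p 0.073 and 0.058). All 4 had an unadjusted p under 0.05 in both comparisons. Over 6 against 6 tumors all 4 were raised, by 0.22 to 0.28 (adjusted p = 0.019 to 0.022), as were both cyclins E, by 0.39 for Ccne1 and 0.43 for Ccne2 (adjusted p = 0.029 and 0.0060).

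**Figure D3:**
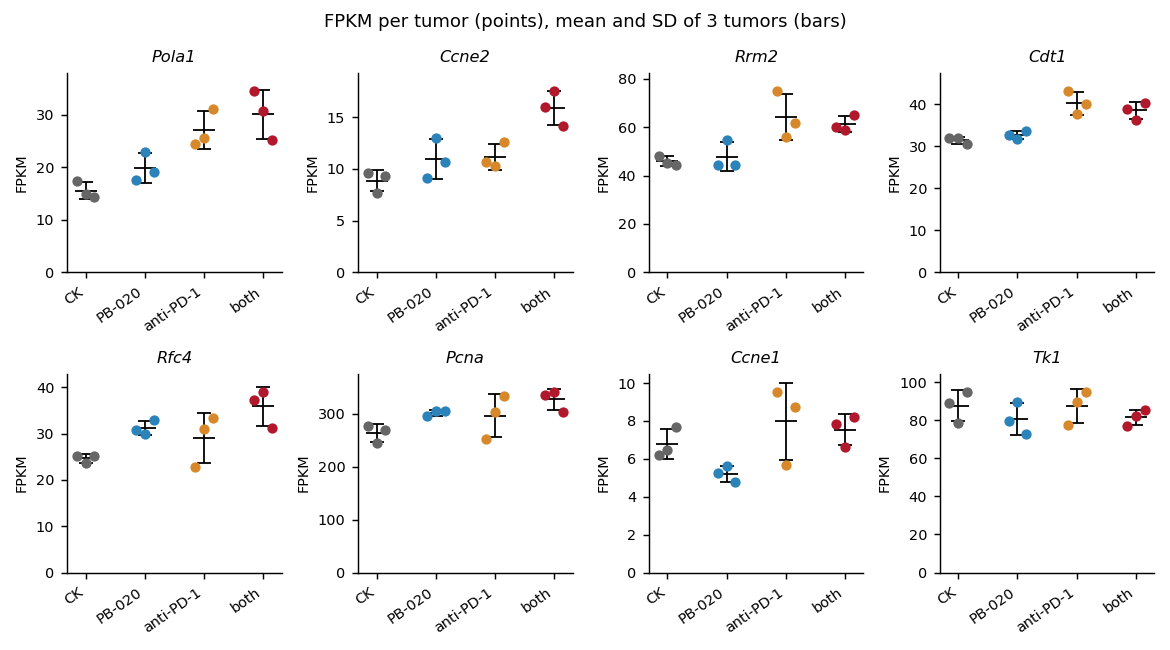
FPKM in each tumor (points) with the mean and SD of the 3 tumors of a group, for 8 members; the axes start at 0. Pola1, Rrm2 and Cdt1 separate the 6 tumors with the antibody from the 6 without, Ccne2 is highest in the combination group, Rfc4 and Pcna are above CK in PB-020, and Tk1 overlaps in all groups.

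Among the genes that rebuild chromatin behind the fork, Chaf1a rose in both antibody groups. Chaf1a, the large subunit of chromatin assembly factor 1, had 24.9, 22.5 and 23.2 FPKM in CK, 23.7, 26.5 and 22.3 in PB-020, 32.2, 28.3 and 31.2 in anti-PD-1 and 31.7, 26.1 and 32.4 in the combination group. Chaf1a rose by 0.40 on the log2 scale with anti-PD-1 (SE 0.09, adjusted p = 0.020) and by 0.37 with the combination (SE 0.09, adjusted p = 0.014). Of its annotated exon bases, 33.6% overlap those of Ubxn6 on the other strand. Dnmt1, which copies DNA methylation, was raised by the combination (0.28, SE 0.09, adjusted p = 0.042), a call lost in 10 of 21 alternative settings, and Uhrf1, which recruits it, was raised over 6 against 6 tumors (0.25, adjusted p = 0.014). Chaf1b, the partner of Chaf1a, had 0.05 with the combination (adjusted p = 0.79), and Slbp, the histone mRNA binding protein, had 0.15 (adjusted p = 0.24).

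PB-020 alone raised 0 and lowered 0 of the members, and 0% of all genes were raised (edgeR, adjusted p). The median log2 change was 0.035, 27 members were positive and 10 negative, and 4, namely Pola1, Pcna, Rfc4 and Ccne2, had an unadjusted p under 0.05 as raised, against 3.12% of all genes. DESeq2 and the other settings also called 0 members. Over the 6 tumors with PB-020 against the 6 without, 0 members were called by edgeR or DESeq2 (0% of all genes by edgeR), and the same 4 members were higher at an unadjusted p under 0.05, against 6.55% of all genes. Their log2 values were 0.42 for Ccne2, 0.33 for Rfc4, 0.27 for Pola1 and 0.18 for Pcna, with adjusted p values of 0.31 to 0.38.

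**Figure D4:**
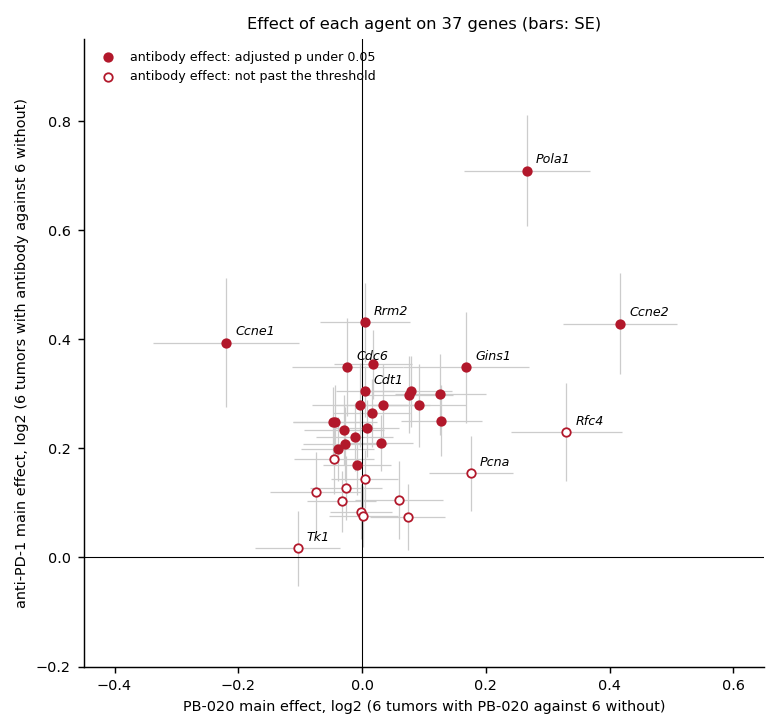
For each of the 37 members, the log2 effect of PB-020 (6 tumors with it against 6 without) on the horizontal axis and of the antibody on the vertical axis, with standard errors. All points lie above 0 on the vertical axis, while they spread to both sides of 0 on the horizontal axis, with Ccne2, Rfc4, Pola1 and Pcna on the right and Ccne1 on the left.

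Whether adding PB-020 to the antibody changed the members was tested directly. Between the combination and anti-PD-1, 0 of 37 members passed in either direction (0% of all genes), the median log2 difference was 0.00 and 19 members were positive. Ccne2 was higher in the combination group by 0.50 (SE 0.13, 95% interval 0.25 to 0.76, unadjusted p = 0.0017, adjusted p = 0.66) and Rfc4 by 0.30 (SE 0.13, unadjusted p = 0.033, adjusted p = 0.66), and no other member had an unadjusted p under 0.05, a rule that 4.45% of all genes passed as raised. DESeq2 also called 0 members here and in the interaction. Over the members the 95% intervals of this difference lay between −0.41 and 0.76. The interaction, which asks whether both effects add on the log2 scale, had 0 members called (0% of all genes) and 0 at an unadjusted p under 0.05, with values from −0.22 for Pola1 to 0.27 for Ccne1. Between the combination and PB-020 alone, all 37 log2 differences were positive with a median of 0.21, and 2 members were raised, Pola1 by 0.60 (SE 0.14) and Ccne2 by 0.52 (SE 0.13), both with an adjusted p of 0.047, while 1.25% of all genes were raised. That count was 0 without any 1 of the CK tumors, of PB-020 tumors 1 and 3 or of combination tumors 1 and 2, 1 without combination tumor 3, 6 without PB-020 tumor 2, and 5 or 9 without anti-PD-1 tumor 2 or 1.

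Of 46 other genes of replication, the combination raised 13 and lowered 0, and anti-PD-1 raised 7 and lowered 0, beside the 8.35% and 4.18% of all genes raised. Their median log2 changes were 0.19 and 0.15. Those with the smallest p were Gmnn, geminin, which holds Cdt1 back, at 0.64 (adjusted p = 0.0028), Dscc1, of an alternative clamp loader, at 0.85 (adjusted p = 0.0042), Dut, the dUTPase, at 0.36 (adjusted p = 0.0057) and Hells, a chromatin helicase, at 0.49 (adjusted p = 0.0064), all in the combination group. Gmnn was 26.7 to 31.0 FPKM in CK, 31.4 to 34.7 in PB-020, 32.5 to 40.4 in anti-PD-1 and 41.2 to 48.8 in the combination group, which overlapped with no other. Pole2, Usp1 and Pole4 were raised by the combination by 0.28 to 0.38.

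Of 29 further regulators of G1 and S, 27 passed the filter, Cdkn2a and Mycn being too low. The combination raised 5 and lowered 1, beside 8.35% and 9.6% of all genes, and anti-PD-1 raised 5, beside 4.18%. Ccnd1, cyclin D1, had 154.5 to 182.7 FPKM in CK, 166.6 to 189.6 in PB-020, 207.7 to 227.6 in anti-PD-1 and 198.8 to 251.0 in the combination group, with log2 changes of 0.37 and 0.44 (adjusted p = 0.034 and 0.010). Ccna2, cyclin A2, rose by 0.38 and 0.44 (adjusted p = 0.024 and 0.0075), Rbl1, the pocket protein p107, by 0.31 and 0.33 (adjusted p = 0.019 and 0.0083), and Cdk6, a cyclin D kinase, by 0.28 with anti-PD-1 (adjusted p = 0.020). The lowered gene was Cdkn2c, the CDK4/6 inhibitor p18, which fell by 0.69 in the combination group (SE 0.18, adjusted p = 0.028). It had 56.1, 58.1 and 59.7 FPKM in CK, 52.3, 49.0 and 49.7 in PB-020, 23.2, 49.6 and 29.4 in anti-PD-1 and 27.5, 33.8 and 33.4 in the combination group. The other CDK inhibitor genes tested did not pass with the combination (edgeR). Cdkn1c had a log2 change of 1.92 (SE 0.65, adjusted p = 0.059), Cdkn2b 0.58, Cdkn1a 0.26, Cdkn2d 0.18 and Cdkn1b −0.25. Over 6 against 6 tumors, Cdkn1c had 1.66 (adjusted p = 0.024) and Cdkn1b had −0.23 (adjusted p = 0.017).

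Of 25 genes of G2 and mitosis, the combination raised 11 and anti-PD-1 raised 3, with 0 lowered and median log2 changes of 0.28 and 0.25, beside the same shares of all genes. The mean over a list in each tumor, in log2 CPM above the CK mean, shows how far single tumors carried this. For the members it was 0.10, −0.08 and −0.01 in CK, 0.02, 0.16 and −0.05 in PB-020, 0.22, 0.21 and 0.32 in anti-PD-1 and 0.31, 0.25 and 0.28 in the combination group. The 6 tumors with the antibody were all above the 6 without. For the G2 and mitosis genes PB-020 tumor 2, at 0.35, lay above every tumor but anti-PD-1 tumor 3 at 0.40, so there the groups overlapped.

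Markers of T cells were also higher in both antibody groups. Of 13, 11 passed the filter, 9 were raised by anti-PD-1, 10 by the combination and 0 by PB-020, beside 4.18%, 8.35% and 0% of all genes. Their summed TPM was 26.3 to 35.3 in CK, 37.5 to 45.6 in PB-020, 56.1 to 153.9 in anti-PD-1 and 68.0 to 103.2 in the combination group, with none at 0. In the combination tumors their list means were 1.16, 1.80 and 1.52, beside member means of 0.31, 0.25 and 0.28. In the PB-020 tumors they were 0.33, 0.33 and 0.52, beside member means of 0.02, 0.16 and −0.05. In anti-PD-1 tumors 1, 2 and 3 they were 2.23, 0.83 and 0.91, beside member means of 0.22, 0.21 and 0.32. The part of T cells in the members' change was not tested. Erythroid markers moved the other way, with all 5 that passed the filter lowered in both antibody groups and a summed TPM of 1218 to 2760 in CK, 767.7 to 1840 in PB-020, 180.3 to 727.1 in anti-PD-1 and 223.6 to 305.0 in the combination group, while 4.08% and 9.6% of all genes were lowered with anti-PD-1 and the combination. Of 8 fibroblast markers, Col3a1, Dcn, Pdgfra and Pdgfrb were lowered in each, and Col1a1, Col1a2, Lum and Thy1 had positive log2 changes that did not pass, from 0.32 to 1.69. Macrophage markers, at 1243 to 2535 summed TPM over all tumors, had 0 of 8 raised or lowered. The part of these cells was not tested either.

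**Figure D5:**
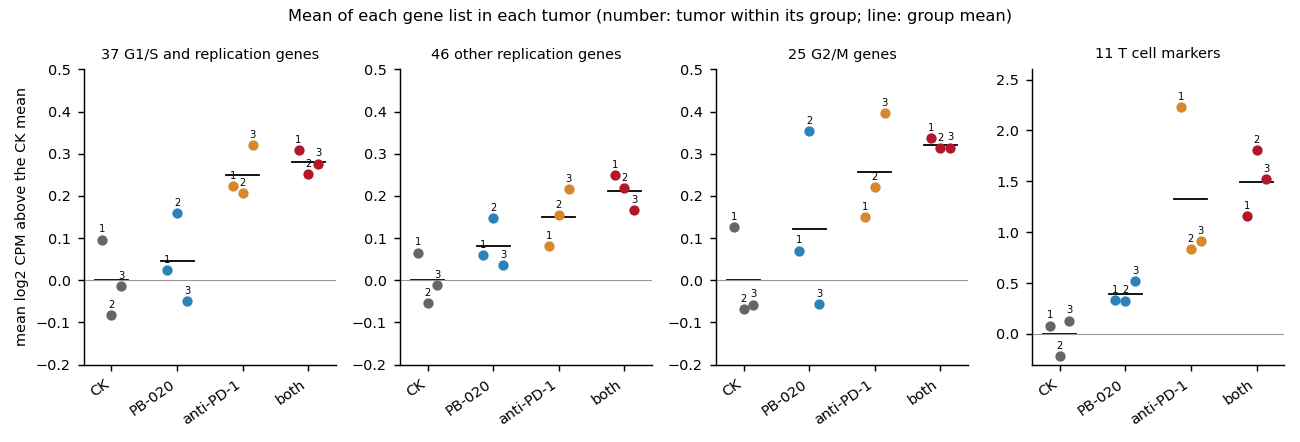
Mean log2 CPM above the CK mean for the members, for other replication genes, for G2 and mitosis genes and for T cell markers in each tumor (numbered points), with group means (lines); the vertical scale of the T cell panel is larger. The member means of the 6 tumors with the antibody, 0.21 and higher, are above the highest tumor without it, 0.16. In the T cell panel anti-PD-1 tumor 1 is highest, at 2.23.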

How the data were processed

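The authors ground the MC38 tumors of 4 groups of 3 and sent them out for RNA sequencing, on an Illumina HiSeq X instrument as paired reads. Per the methods, reads were aligned with Bowtie2 at default settings and quantified with RSEM. The submitters' processing notes name HISAT, Bowtie2 and GRCm38.p6. Versions, annotation and the use of strand are not given in the sources used here. The authors deposited expected counts, which are RSEM estimates without normalization (91.0% were whole numbers), FPKM, which are divided by transcript length and library total, and TPM, scaled by the authors to a common total per library. The authors' group averages were not used.

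Expected counts were rounded, filtered with filterByExpr (minimum count 10), scaled by TMM and fitted in edgeR 4.0.16 (R 4.3.3) with robust quasi-likelihood dispersion and 4 group means over all 12 libraries. P values were two-sided and adjusted by the Benjamini-Hochberg method over 13563 genes, with 0.05 as the threshold. The methods used a per-gene test on FPKM with a fold of 1.5, run here as an alternative. Counts of 16545394 to 17217035 per library set the precision, and intervals (nominal 95%, log2 change with its standard error) reflect tumor-to-tumor variation together with counting error. The intervals use a normal approximation. With few tumors they are somewhat too narrow, and 1 can exclude 0 where the unadjusted p of the quasi-likelihood test is above 0.05. Orders of tumors over all genes were taken on log2 CPM (prior count 2).

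The members, lists and tests were chosen with earlier results of these data known. Values in every tumor are given for the leading member of each role by p, for up to 14 members past the threshold by p, and for those against the median. Other replication and G1/S genes are named up to 12 by p, and the CDK inhibitor genes outside that rule. The values of 1 gene that the rule names are not reported here. RefSeq windows of GRCm38.p6 were searched for fixed letters on both strands.

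On simulated counts for the combination against CK (13481 genes), edgeR recovered 3 of 63 genes changed 1.2-fold, 34 of 69 changed 1.5-fold and 48 of 68 changed 2-fold, and called 0 of 13281 unchanged genes. A smaller share of genes was changed there than was called in the data, where 8.35% were raised and 9.6% lowered. The adjusted p depends on that share, so recovery in the data can differ. Alternatives were DESeq2 1.42.0, limma 3.58.1 on log2(FPKM + 1) and log2(FPKM + 0.1), library size or DESeq2 size factors as scaling, no filter, a strict filter (at least 1 CPM in all 12 libraries), only the groups compared, a block, and each library left out.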

Additional observations from a re-analysis of the deposited data

How the results depend on the processing

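Which members passed depended on the tumors and the model, while their direction did not. For anti-PD-1 against CK, 6 members were raised, and the count was 14 with DESeq2, 1 with the per-gene FPKM test, 1 with a fold over 1.5 at an unadjusted p, 0 when only the groups compared were fitted (fewer samples), and 1 to 10 with a tumor left out. For the combination against CK, 16 became 2 with the per-gene FPKM test, 2 with a fold over 1.5 and 3 to 17 with a tumor left out. For the combination against PB-020, 2 became 9 with DESeq2, 10 with only the groups compared, 1 with limma on log2(FPKM + 1), 1 with the FPKM test, 1 with no filter, 1 with a fold over 1.5, 0 with the replicate block and 0 to 9 with a tumor left out. For the antibody over 6 against 6 tumors, 25 became 1 with a fold over 1.5 and 16 to 27 with a tumor left out. Except for the construction named, the cause was not tested. The median log2 change ran from 0.20 to 0.28 in the combination group, from 0.22 to 0.30 with anti-PD-1 and from −0.02 to 0.08 with PB-020 when a tumor was left out. The counts of 0 for PB-020, for the combination against anti-PD-1, for PB-020 over 6 against 6 and for the interaction were 0 under all alternatives run.

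No source used here says that tumor numbers pair the samples, and the main fit had no block. Correlations of same-numbered tumors between groups were taken after each gene's group mean was subtracted. They ran from −0.21 to 0.29 and 2 of 18 were over 0.1. These values cannot show whether such tumors shared a cage or an extraction. With the replicate block, 12 members were raised by the combination, 5 by anti-PD-1 and 22 by the antibody over 6 against 6 tumors, and it changed no other count of members by over 1.5 times than the 1 given above. No called member changed sign under any alternative, and among members not called signs changed in 68 of 777 values for PB-020, 8 of 777 for anti-PD-1 and 2 of 777 for the combination. The lowest count of a member was 146. In the simulated counts changes of 1.2-fold were seldom recovered with 3 tumors a group. Those counts held a smaller share of changed genes than was called in the data, so recovery of the members can differ.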
